A study of Homo sapiens with 12 samples.

Results

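The genes described here code for the proteins of the cytoplasmic ribosome. They were taken by symbol as *RPL* or *RPS* followed by a number and, where present, the suffix A, L or X with a further digit, together with *RPLP0*, *RPLP1*, *RPLP2* and *RPSA*, and genes on the Y chromosome were left out. The rule gave 83 of the 10976 genes listed in the deposited data, 51 of the large subunit and 32 of the small subunit, and 4 of them lie on chromosome X. The subunit was read from the symbol.

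RNA of cerebral organoids (COs) grown from human embryonic stem cells was sequenced in 12 libraries. The lines were H1, called WT here, and 2 edited derivatives, KO#2 and KO#10, in which CRISPR-Cas9 was aimed at *c-JUN*. COs were taken on day 12 and day 24, with 2 libraries for each line and day, so that 2 WT and 4 KO libraries were compared on each day. Each library held RNA of several pooled COs, and the study's methods speak of separate batches for its experiments without saying which library came from which, so that the *p*-values measure the spread between libraries, which may be technical. The labels give embryonic stem cells as the source of all libraries. Each edited line is a single clone, and no libraries of a second WT line or of a rescued line were analysed here. The study reports no c-JUN protein in the edited lines by western blot. By RT-qPCR it reports no *c-JUN* RNA in their neural progenitor cells or COs. Neither measurement was analysed here. The RNA-seq scores of the gene differed from that RT-qPCR result. As scores of RNA do not measure the protein, they cannot decide whether the labels are right. *JUN* (ENSG00000177606) scored 4 to 8 in WT against 13 to 19 in KO on day 12, and 13 to 15 against 29 to 39 on day 24, so that its RNA was higher in every library labelled KO than in the WT libraries of that day (log2 difference at day 24 of 1.25 ± 0.17 (SE), limma, adjusted *p* = 0.0184). KO below therefore means the libraries labelled KO.

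A ribosome is built from a small subunit, which decodes the messenger RNA, and a large subunit, which joins amino acids. Their proteins are made in matched amounts, and most of their messenger RNAs start with a run of pyrimidines, the 5′ terminal oligopyrimidine (TOP) motif, through which mTOR signalling adjusts their translation to growth conditions. Pluripotent stem cells and proliferating progenitors are known for high expression of these genes. Several of them have a paralog, and the proteins of some paralogs can take the place of their parents' in the ribosome.

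The deposited values are whole-number scores on a scale common to all libraries. Each library had a median of 17, a highest value of 5585 held by 9 to 10 genes, and a next level of 3030 to 3048 held by 9 to 10 genes, so that large steps between libraries in this range, such as from 3036 to 5585, are moves of a gene between neighbouring levels. Column totals (473637 to 483149) do not give the depth, which is unknown. Ribosomal protein genes filled much of the top of the scale. Of the 47 to 49 genes at 900 or more in a library, 20 to 29 were ribosomal protein genes, and their summed scores made up 14.3% to 18.7% of the column total. None was listed at 0 in any library, and *RPL22L1* in KO#10 replicate 1 on day 12 was the only one under 10, at 9. All 83 passed the filter on low values in every comparison.

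Members differed widely in how constant they were. *RPL26*, a protein near the exit tunnel of the large subunit, was at 3040 in all 12 libraries. In 21 members the highest score was at most 1.5 times the lowest, in 39 it was over 2 times and in 17 over 4 times the lowest. Human ribosomal protein genes have many processed copies and some overlap other genes, and although RSEM, which divides such reads by estimation, is named in the submitters' processing notes, its settings are not given in the sources used here, so that single members are uncertain to that extent.

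To show how parent genes and paralogs differ where their transcripts begin, windows of 30 bases are printed for 4 pairs, together with 4 members whose scores moved between groups. Each window holds 15 bases before the start listed by RefSeq (GRCh38.p14) and 15 bases from that start, 5′ to 3′ on the gene's strand, and capitals mark an unbroken run of C or T that begins with a C at the listed start.
RPL22, chr1:6199581-6199610, minus strand: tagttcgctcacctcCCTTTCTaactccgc
RPL22L1, chr3:170870181-170870210, minus strand: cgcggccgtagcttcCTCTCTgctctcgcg
RPS27, chr1:153990747-153990776, plus strand: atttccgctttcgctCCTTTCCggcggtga
RPS27L, chr15:63157463-63157492, minus strand: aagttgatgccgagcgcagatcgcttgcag
RPL36A, chrX:101390996-101391025, plus strand: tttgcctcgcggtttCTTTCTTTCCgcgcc
RPL36AL, chr14:49620612-49620641, minus strand: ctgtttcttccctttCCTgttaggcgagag
RPL26, chr17:8383179-8383208, minus strand: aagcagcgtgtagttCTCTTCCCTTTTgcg
RPL26L1, chr5:172958714-172958743, plus strand: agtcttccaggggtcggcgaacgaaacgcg
RPL26L1, other listed start, chr5:172958865-172958894, plus strand: ggcggggcggcggccacaaacccgcaggca
RPL12, chr9:127451392-127451421, minus strand: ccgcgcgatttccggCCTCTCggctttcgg
RPS24, chr10:78033848-78033877, plus strand: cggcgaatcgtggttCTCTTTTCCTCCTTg
RPSA, chr3:39406705-39406734, plus strand: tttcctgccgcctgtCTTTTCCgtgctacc
RPLP0, chr12:120201097-120201126, minus strand: gcgcgggcgcgaggcCCTTCTCTCgccagg

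The 4 parent genes had runs of 7 (*RPL22*), 7 (*RPS27*), 10 (*RPL36A*) and 12 bases (*RPL26*). Of their paralogs, *RPL22L1* had a run of 6, *RPL36AL* of 3, and *RPS27L* and *RPL26L1* had none at their listed starts. The motif was searched on the gene's strand as a C at the listed start followed by at least 4 bases of C or T. It was found in 47 of the 67 members matched by symbol to the RefSeq start table (70.1%), in 29 of 42 of the large subunit (69.0%) and in 18 of 25 of the small subunit (72.0%), against 1404 of all 27305 genes in that table (5.14%). A match describes these letters only.

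The first comparison asked how the 2 subunits stood in each line and on each day. The plot of subunit means shows the mean log2(score + 1) of each subunit in every library. The 51 large-subunit genes averaged 8.86 ± 0.05 (SD, n = 2) in WT and 8.85 ± 0.03 (n = 4) in KO on day 12. On day 24 they averaged 9.15 ± 0.09 in WT and 8.79 ± 0.06 in KO, with both WT libraries (9.08 and 9.21) above all 4 KO libraries (8.73 to 8.87). The 32 small-subunit genes averaged 9.26 ± 0.14 in WT and 9.31 ± 0.11 in KO on day 12. On day 24 they averaged 9.34 ± 0.05 in WT and 9.09 ± 0.05 in KO, again without overlap (9.30 and 9.37 against 9.05 to 9.17). Both subunits thus stood lower in KO than in WT on day 24 and overlapped on day 12. In bulk RNA, fewer cells of a type and less RNA per cell cannot be told apart.

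**Figure D1:**
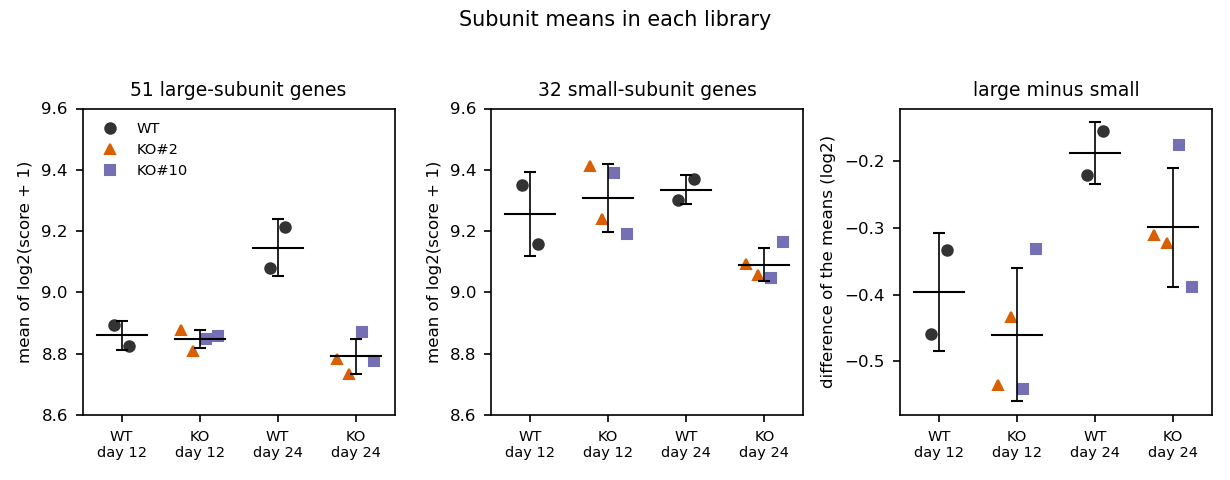
Mean of log2(score + 1) over the 51 large-subunit genes, over the 32 small-subunit genes, and the difference of these means, for each of the 12 libraries (points, by line), with the group mean (line) and SD (bar). On day 24 the WT libraries lie above the KO libraries for both subunits, while the large minus small difference overlaps between WT (-0.22 and -0.16) and KO (-0.39 to -0.18).

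The balance between the subunits was described by the large mean minus the small mean within each library. Since scores may depend on transcript length, only changes of this difference are read, not its level. It was -0.40 ± 0.09 in WT and -0.46 ± 0.10 in KO on day 12, and -0.19 ± 0.05 in WT and -0.30 ± 0.09 in KO on day 24. On each day the WT and KO libraries overlapped. In WT both day 24 libraries (-0.22 and -0.16) were above both day 12 libraries (-0.46 and -0.33), and in KO the days overlapped (-0.54 to -0.33 on day 12 and -0.39 to -0.18 on day 24). No test was made on these means, because the members were chosen with earlier results known.

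On day 12, no ribosomal protein gene differed between KO and WT at an adjusted *p* under 0.05 (limma, Benjamini-Hochberg over all 8885 genes tested, of which 0.09% were called). At an unadjusted *p* under 0.05 there were 3 of the 83 members, against 980 of all 8885 genes, so that this count does not mark the members out. The median log2 difference of KO against WT was 0.01 over all 83 members, 0.00 over the large and 0.02 over the small subunit, against 0.00 over all genes tested. All 4 KO libraries lay above both WT libraries for 2 members (background 8.23%) and below them for 1 (background 8.34%).

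The 3 members at an unadjusted *p* under 0.05 were *RPL39L*, *RPL37* and *RPS19*. *RPL39L*, the paralog of the exit tunnel protein gene *RPL39*, was at 24 and 40 in WT against 19, 18, 14 and 19 in KO, the KO libraries below both WT libraries (log2 difference -0.80 ± 0.22, adjusted *p* = 0.221, limma). *RPL37*, a zinc-binding large-subunit protein gene, was at 116 and 118 in WT against 171, 149, 142 and 178 in KO (0.44 ± 0.15, adjusted *p* = 0.326). *RPS19*, the gene most often mutated in Diamond-Blackfan anemia, was at 1203 in both WT libraries against 1203, 3043, 3043 and 3043 in KO (1.00 ± 0.38, adjusted *p* = 0.382). The other member with KO above WT in every library was *RPL37A*, named after its values were seen. Other members with differences of this size included *RPL7* (-0.77), *RPL5* (0.79) and *RPS20* (0.67). *RPS14* (-0.70), *RPL9* (-0.67) and *RPL10* (-0.67), named here after their values were seen, were of like size and below 0. None of these was called. *RPL5*, which binds the 5S ribosomal RNA, was at 3030 in 11 of the libraries and at 1006 in WT replicate 1 on day 12. It was the 1 member called when WT replicate 2 was left out.

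On day 24, 13 ribosomal protein genes were lower in KO than in WT and 1 was higher. The lower members made up 15.7% of the 83, against 6.48% of all 9289 genes tested that were called lower, and the higher member 1.2%, against 8.16% called higher. Of the 13, 9 belong to the large and 4 to the small subunit, and 7 were at least 2-fold lower (background 3.79%). The median log2 difference of KO against WT was -0.24 over all 83, -0.34 over the large and -0.21 over the small subunit, and 0.01 over all genes tested, with 64 members below 0, 16 above and 3 at 0. All 4 KO libraries lay below both WT libraries for 32 members, 19 large and 13 small, which is 38.6% of them (background 21.8%), and above for 3, which is 3.61% (background 22.2%). The strip plot of differences shows these values beside those of the other comparisons.

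**Figure D2:**
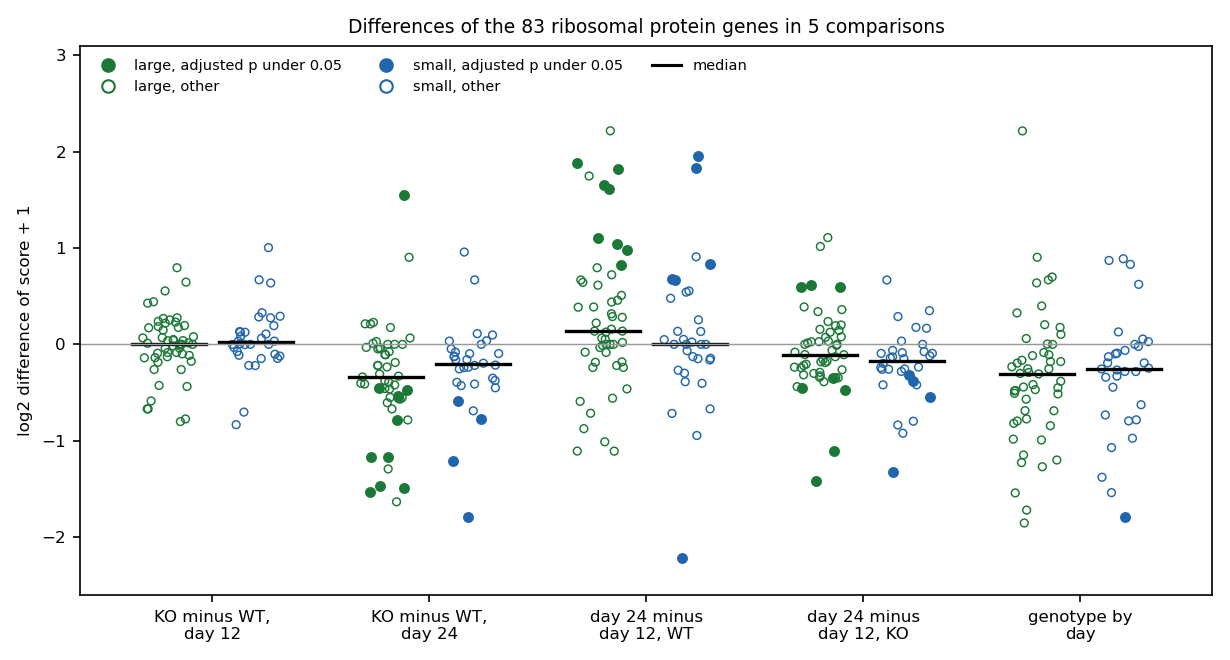
Log2 difference of score + 1 for each of the 83 ribosomal protein genes in 5 comparisons, split into large (green) and small (blue) subunit, with filled points at an adjusted p under 0.05 (limma) and black lines at the median. Values centre near 0 for KO minus WT on day 12 (median 0.01) and lie mostly below 0 on day 24 (median -0.24).

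The count on day 24 moved with single libraries. It was 2 without WT replicate 1 and 2 without WT replicate 2, where the lone WT library is assumed to vary as the KO libraries do. Among the KO#2 libraries, leaving out replicate 1 gave 5 and leaving out replicate 2 gave 1. Among the KO#10 libraries the counts were 22 (replicate 1 left out) and 1 (replicate 2 left out). The medians stayed between -0.26 and -0.22 in these fits, for which the share of all genes called was not computed. *RPS15A* was called in each of them, and over all 15 alternatives the other 12 members that were lower lost their call in 4 to 11.

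*RPS15A* (ENSG00000134419, chr16:18781295-18790383, minus strand), which codes for a protein of the small subunit, had the largest called difference on day 24. It was at 3036 in both WT libraries against 900, 900, 820 and 900 in KO, while on day 12 all 6 libraries held 748 or 820. The day 24 WT libraries thus stood apart from the other 10, with a log2 difference of KO against WT of -1.79 ± 0.10 (SE, adjusted *p* = 0.00222, limma). Among all genes of a library, *RPS15A* ranked 17 to 18 in WT on day 24, 46 to 57 in KO on day 24 and 52 to 66 on day 12. The call held in all 15 alternatives. Equal scores within the groups, on a scale with coarse steps here, narrow the spread that the SE and *p*-value rest on, so that both may be too small. The same limit applies to *RPS15A* in the comparisons below and to other members with tied scores.

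Of the 13 members called lower in KO than in WT on day 24, 5 reached 900 or more in a library. The other 8 stayed under 900, where the score has finer steps. *RPL27* (ENSG00000131469) was at 279 and 395 in WT against 96, 114, 134 and 136 in KO (-1.47 ± 0.20, adjusted *p* = 0.0192). *RPL12*, which helps form the base of the stalk that recruits translation factors, was at 665 and 1007 in WT against 335, 352, 424 and 354 in KO (-1.16 ± 0.19, adjusted *p* = 0.0206). *RPL11*, which with *RPL5* binds the 5S ribosomal RNA and can bind MDM2, was at 424 and 550 in WT against 212, 288, 316 and 316 in KO (-0.79 ± 0.20, adjusted *p* = 0.0457). The WT libraries lay above all KO libraries in each of these 3 genes, and KO#2 replicate 1 was the lowest.

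*RPL3*, a protein close to the peptidyl transferase centre, was at 1203 and 1008 in WT against 820, 666, 820 and 750 in KO (-0.53 ± 0.14, adjusted *p* = 0.0466). *RPL32* was at 902 in both WT libraries against 668, 604, 668 and 668 in KO (-0.47 ± 0.11, adjusted *p* = 0.0349). *RPL17*, beside the exit tunnel, was at 1202 in both WT libraries against 901, 820, 901 and 901 in KO (-0.45 ± 0.10, adjusted *p* = 0.0363). These 3 differences were under 2-fold, with no overlap of the groups, and the call of *RPL3* was lost in 11 of its 15 alternatives.

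In the small subunit, *RPS27* (ENSG00000177954), a zinc-finger protein gene, was at 470 and 600 in WT against 138, 250, 301 and 264 in KO (-1.21 ± 0.31, adjusted *p* = 0.0448). Its paralog *RPS27L* was at 79 and 65 in WT against 36, 42, 42 and 46 in KO (-0.78 ± 0.15, adjusted *p* = 0.0260). *RPS24*, another Diamond-Blackfan anemia gene, was at 750 and 668 in WT against 452, 472, 452 and 507 in KO (-0.59 ± 0.12, adjusted *p* = 0.0270). In all 3 the lowest WT library was above the highest KO library.

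*RPL10* (ENSG00000147403, chrX:154389955-154409168, plus strand), needed for the joining of the subunits, was the member that was higher in KO. It was at the highest value of the scale, 5585, in all 4 KO libraries and at 3043 and 1203 in WT (1.54 ± 0.32, adjusted *p* = 0.0301). The call was lost in 4 of 15 alternatives, which were the fit over all 12 libraries (adjusted *p* = 0.0889) and those without KO#2 replicate 1, KO#2 replicate 2 or KO#10 replicate 2. On day 12, *RPL10* was at 5585 in replicate 1 of WT, KO#2 and KO#10 and at 3043, 1202 and 1203 in their replicate 2, so that its level there went with the replicate number. The other members with every KO library above WT on day 24 were *RPS23*, a protein at the decoding site, at 900 in both WT libraries against 1007, 3036, 1007 and 3036 in KO (0.96, adjusted *p* = 0.221), and *RPL7L1* (0.23, adjusted *p* = 0.218). *RPL39* (0.90) and *RPSA* (0.67) had positive differences with overlapping groups and adjusted *p* of 0.383 and 0.302.

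Some large differences that were not called belonged to members with a wide spread within a group. *RPL13A*, a large-subunit protein gene also known for a role in silencing translation of inflammatory messages, was at 5585 and 3036 in WT against 1007, 1007, 3036 and 1007 in KO (-1.63 ± 0.50, adjusted *p* = 0.0655). *RPL13* was at 750 and 5585 in WT against 602, 1009, 667 and 1202 in KO (-1.29 ± 0.72, adjusted *p* = 0.228). KO#10 replicate 1 held the 3036 of *RPL13A*. Of the 13 members called lower in KO than in WT, KO#10 replicate 1 had the highest KO score alone in 5, KO#10 replicate 2 in 3, and the KO#2 libraries in 0.

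**Figure D3:**
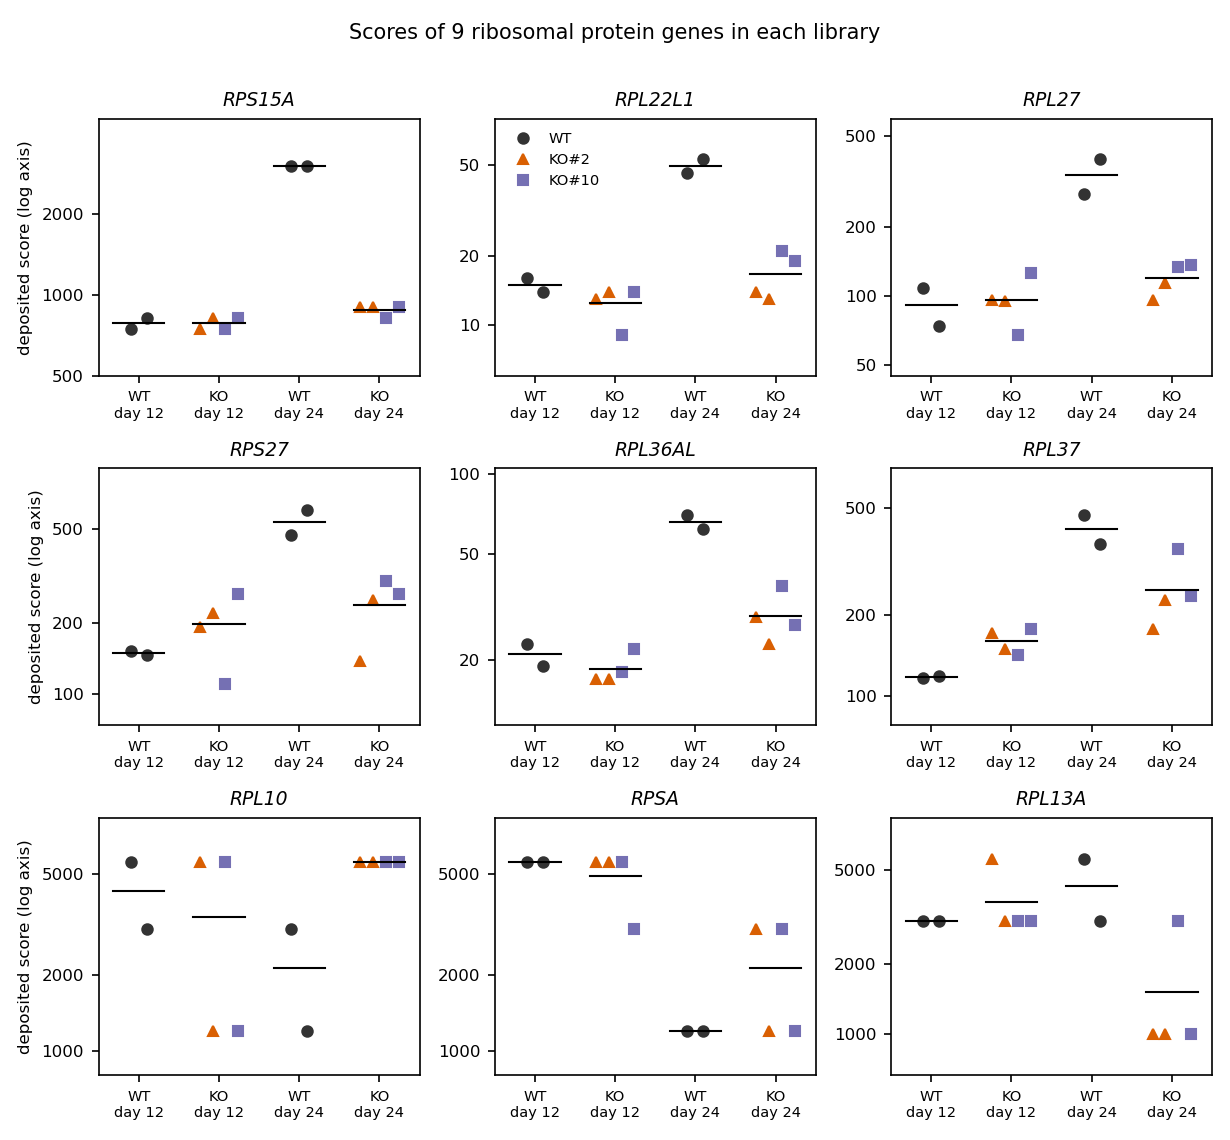
Scores of 9 ribosomal protein genes (log axis) in each of the 12 libraries, by genotype, day and line, with the group mean as a line. In *RPS15A*, *RPL22L1*, *RPL27*, *RPS27*, *RPL36AL* and *RPL37* the 2 WT libraries of day 24 lie above every other library, in *RPL10* the 4 KO libraries of day 24 are all at 5585, and in *RPSA* both WT libraries of day 24 are at 1202.

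Ribosome paralogs were among the members with large differences. *RPL22L1* (ENSG00000163584, chr3:170864875-170870208, minus strand), which can replace *RPL22* in the ribosome, was at 46 and 53 in WT against 14, 13, 21 and 19 in KO on day 24 (-1.53 ± 0.22, adjusted *p* = 0.0195). Its day 12 scores were 16 and 14 in WT against 13, 14, 9 and 14 in KO. The day 24 WT libraries were above the other 10, and *RPL22* itself differed less, at 166 and 178 in WT and 136, 124, 130 and 133 in KO on day 24 (-0.39 ± 0.11, adjusted *p* = 0.0565).

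*RPL36AL* was at 70 and 62 in WT against 29, 23, 38 and 27 in KO (-1.17 ± 0.20, adjusted *p* = 0.0223), and its parent *RPL36A* at 426 and 426 in WT and 212, 338, 396 and 369 in KO (-0.41 ± 0.25, adjusted *p* = 0.261). *RPL39L* was at 33 and 60 in WT against 11, 17, 19 and 15 in KO (-1.49 ± 0.29, adjusted *p* = 0.0259), and *RPL39* at 820 in both WT libraries against 5585, 820, 1202 and 1007 in KO. *RPL26L1* was at 41 and 29 in WT against 19, 26, 31 and 18 in KO (-0.57 ± 0.26, adjusted *p* = 0.150). Every KO score was below both WT scores in *RPL36AL*, *RPL36A* and *RPL39L*, and the groups overlapped in *RPL26L1*.

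The pairs can be compared within a library as log2(score + 1) of the paralog minus that of its parent, as in the plot of paralog pairs, whose changes between groups are read and whose level is not. *RPL22L1* minus *RPL22* was -2.98 ± 0.33 (SD) in WT and -3.29 ± 0.29 in KO on day 12, and -1.78 ± 0.07 in WT and -2.92 ± 0.31 in KO on day 24. *RPL36AL* minus *RPL36A* was -3.56 ± 0.12 and -4.01 ± 0.26 on day 12, and -2.67 ± 0.12 and -3.43 ± 0.45 on day 24, in the same order. *RPS27L* minus *RPS27* ran the other way with time, from -1.88 ± 0.19 to -2.88 ± 0.45 in WT and from -1.91 ± 0.43 to -2.44 ± 0.38 in KO. On day 24 the WT and KO libraries did not overlap for *RPL22L1* (-1.83 and -1.73 against -3.19 to -2.57), for *RPL36AL* (-2.76 and -2.59 against -3.82 to -2.83) or for *RPL39L* (-4.59 and -3.75 against -8.86 to -5.51), and WT was higher in these 3. *RPL7L1* minus *RPL7* was apart the other way, at -4.62 in both WT libraries against -4.37 to -4.11 in KO, and the groups overlapped for *RPS27L* and *RPL26L1*. The groups were already apart on day 12 for *RPL36AL* minus *RPL36A*, at -3.65 and -3.48 in WT against -4.36 to -3.72 in KO. For single genes on day 24, all KO libraries lay above both WT libraries in 22.2% of those tested and below in 21.8%. That share was not computed for gene pairs, so these separations are not read as particular to paralogs. The -8.86 of *RPL39L* came from KO#2 replicate 1, where its parent *RPL39* scored 5585. The -4.11 of *RPL7L1* came with *RPL7* at 900 in KO#10 replicate 1. As *RPL26* scored 3040 in every library, the difference of *RPL26L1* follows the paralog alone.

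**Figure D4:**
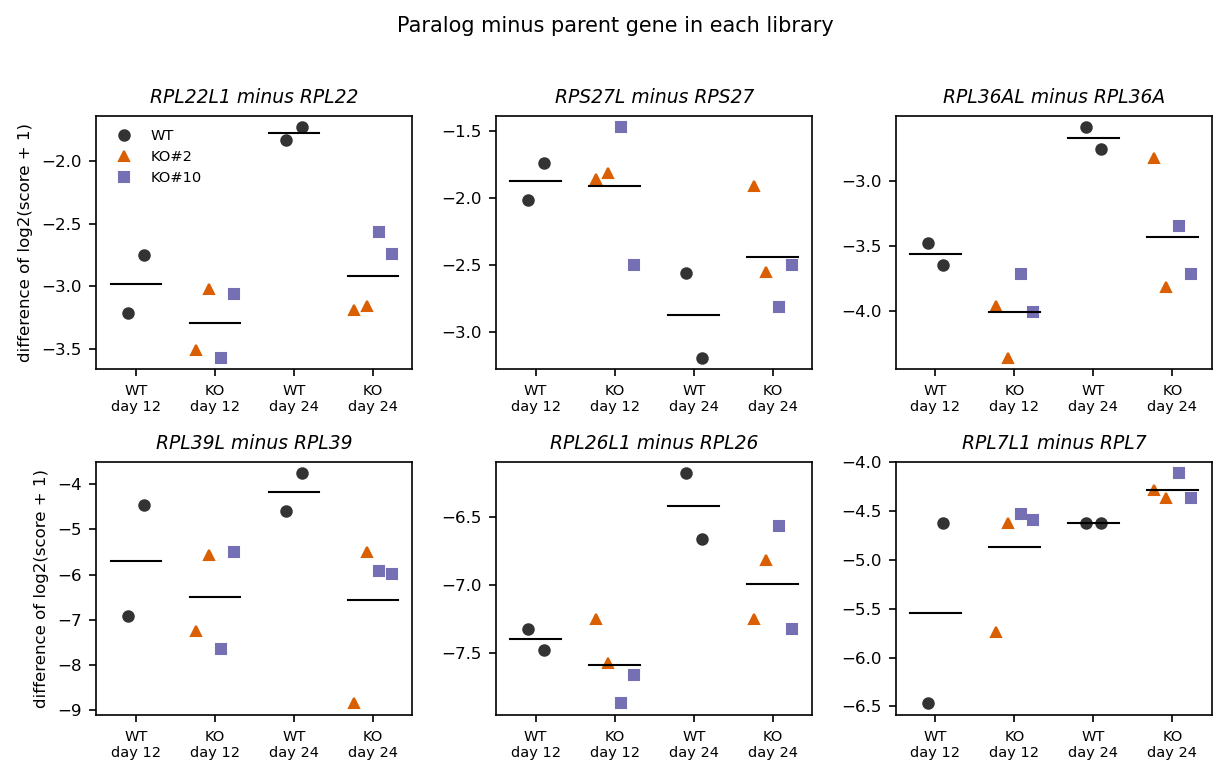
Difference of log2(score + 1) between 6 ribosome paralogs and their parent genes in each of the 12 libraries, by genotype, day and line, with the group mean as a line. *RPL22L1* minus *RPL22* is higher in both WT libraries of day 24 (-1.83 and -1.73) than in every other library, and *RPL7L1* minus *RPL7* spans -6.47 to -4.62 in the WT libraries of day 12.

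None of the 3 stalk genes was called between KO and WT on day 24. *RPLP0*, the core of the stalk, was at 3046 in both WT libraries on day 24 and at 3046, 1204, 3046 and 1204 in KO, each KO line with its lower score in replicate 2 (-0.67 ± 0.45, adjusted *p* = 0.302). *RPLP1* was at 338 and 369 in WT against 192, 278, 237 and 266 in KO (-0.55 ± 0.17, adjusted *p* = 0.0674), and *RPLP2* at 200 and 250 in WT against 290, 237, 236 and 279 in KO (0.21 ± 0.15, adjusted *p* = 0.340). *RPLP1* was lower in every KO library and *RPLP2* overlapped.

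From day 12 to day 24 in WT, 13 ribosomal protein genes rose and 1 fell. The 13 are 15.7% of the members, near the 14.7% of all 8890 genes tested that were called higher, so that the count says nothing particular about them, and the 1 is 1.2% against 16.7% called lower. Of the 13, 8 are of the large and 5 of the small subunit, and the median log2 difference was 0.14 over the large subunit, 0.00 over the small, 0.05 over all 83 and 0.02 over all genes. The day 24 libraries lay above the day 12 libraries for 23 members, 27.7% of them (background 32.8%), and below for 13, 15.7% (background 32.1%). The count of called members was 8 when WT replicate 2 of day 24 was left out. With the replicate number as a block it was 28, of which 21 rose and 7 fell. The share of all genes called was not computed for that fit, so that its count is not read as a result about the members.

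*RPS15A* had the smallest *p*-value of the members in this comparison (1.95 ± 0.16, adjusted *p* = 4.16e-05, limma), with the scores given above. *RPL27* rose from 108 and 74 to 279 and 395 (1.88 ± 0.29), *RPS27* from 152 and 146 to 470 and 600 (1.83 ± 0.39), and *RPL37* from 116 and 118 to 471 and 368 (1.82 ± 0.26). *RPL22L1* (1.66 ± 0.25) and *RPL36AL* (1.61 ± 0.22) followed. In each of these 6 genes both day 24 libraries were above both day 12 libraries, and the adjusted *p* ranged down from 0.00564 for *RPS27*. The other members that rose were *RPL11* (1.11), *RPL28* (1.04), *RPL26L1* (0.98), *RPS27L* (0.83), *RPL12* (0.82), *RPS26* (0.68), which lies at the messenger RNA exit, and *RPS24* (0.66).

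*RPSA* (ENSG00000168028, chr3:39406716-39412542, plus strand), a small-subunit protein also known as the laminin receptor precursor, was the member that fell with time in WT. It was at 5585 in both libraries on day 12 and at 1202 in both on day 24 (-2.22 ± 0.47, adjusted *p* = 0.00545, limma), and its call held in all 12 alternatives. *RPL41*, the shortest ribosomal protein, went from 1202 in both libraries to 5585 in both (2.22 ± 0.88), but was not called (adjusted *p* = 0.0741), and in KO it spread from 820 to 5585 on day 12 alone. *RPL13* (1.75, adjusted *p* = 0.0686) was not called either, nor were the next largest falls, of *RPL7* (-1.11, adjusted *p* = 0.166) and *RPL10* (-1.11, adjusted *p* = 0.263).

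In KO, 3 members rose from day 12 to day 24 and 9 fell. The shares, 3.61% and 10.8%, stand against 19.5% and 19.4% of the 9436 genes tested. The median log2 difference was -0.13 over all 83, -0.11 over the large and -0.17 over the small subunit, and 0.01 over all genes. The day 24 libraries lay above every day 12 library for 2 members, *RPL36AL* and *RPS26*, which is 2.41% of them (background 16.5%), and below for 11, 3 large and 8 small, which is 13.3% (background 15.9%). The count of called members was 6 when KO#2 replicate 2 of day 24 was left out, and 25 with the replicate number as a block (6 up and 19 down). For these fits too, the share of all genes called was not computed.

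The 3 members that rose in KO were *RPL36AL* (0.62 ± 0.15, adjusted *p* = 0.00755), *RPL26L1* (0.60 ± 0.19, adjusted *p* = 0.0267) and *RPL37* (0.60 ± 0.18, adjusted *p* = 0.0230). The WT values of these 3 for the same days were 1.61, 0.98 and 1.82, and the interaction of genotype and day did not pass for any of them (adjusted *p* = 0.0721, 0.549 and 0.0697). *RPL37* was at 171, 149, 142 and 178 in KO on day 12 and at 178, 228, 354 and 236 on day 24, meeting at 178. The 3 largest positive differences belonged to members that were not called, *RPL10* (1.11, adjusted *p* = 0.105), *RPL41* (1.02, adjusted *p* = 0.211) and *RPS23* (0.67, adjusted *p* = 0.138).

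Among the members that fell in KO, *RPSA* was at 5585, 5585, 5585 and 3036 on day 12 and at 3036, 1202, 3036 and 1203 on day 24 (-1.33 ± 0.33, adjusted *p* = 0.00809). *RPL13A* was at 5585, 3036, 3036 and 3036 and then at 1007, 1007, 3036 and 1007 (-1.41 ± 0.36, adjusted *p* = 0.00900). *RPLP0* was at 5585, 3048, 5585 and 3048 and then at 3046, 1204, 3046 and 1204 (-1.11 ± 0.34, adjusted *p* = 0.0234). In *RPSA* and *RPL13A* the days met at 3036, while every *RPLP0* score of day 24 was below those of day 12, by a margin of 3048 to 3046 at the nearest.

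The other members that fell in KO changed by less. They were *RPS21* (-0.55), *RPL19* (-0.47), *RPL17* (-0.45), *RPS6* (-0.38), which is phosphorylated downstream of mTOR, *RPL6* (-0.35) and *RPS10* (-0.32). *RPS6* was at 750 in all 4 KO libraries on day 12 and at 604, 552, 552 and 604 on day 24, and in WT at 668 and 750 and then at 473 and 604 (-0.40, adjusted *p* = 0.0787). The WT differences of the others were -0.27 (*RPS21*), -0.22 (*RPL19*), 0.00 (*RPL17*), -0.19 (*RPL6*) and -0.30 (*RPS10*), none of them called.

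The difference of the KO effect between the days was tested as the interaction of genotype and day. 1 member passed, *RPS15A*, with a log2 difference of -1.79 ± 0.20 (adjusted *p* = 0.00269, limma), against 1.36% of all 9952 genes tested, and its call held in all 19 alternatives. The median over the members was -0.28, -0.31 over the large and -0.25 over the small subunit, and 0.02 over all genes, with 62 members below 0, 20 above and 1 at 0. The members with the largest values besides *RPS15A* were *RPL10* (2.21 ± 0.90, adjusted *p* = 0.181), *RPL13A* (-1.85 ± 0.63, adjusted *p* = 0.126), *RPL13* (-1.72 ± 0.83, adjusted *p* = 0.256) and *RPL27* (-1.54 ± 0.35, adjusted *p* = 0.0537). Leaving out KO#10 replicate 1 of day 24 gave 9 members, leaving out WT replicate 1 of day 24 gave 4, and leaving out WT replicate 2 of day 12 gave 3, and *RPS15A* was among them each time. With the replicate number as a block 8 members passed, *RPS15A* included. The shares of all genes that passed in these other fits were not computed.

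The 2 clones were compared on each day. No member differed between KO#2 and KO#10 on day 12 or on day 24 at an adjusted *p* under 0.05 (limma), and neither did any other gene (0% of 8562 and 0% of 8576 genes tested). At an unadjusted *p* under 0.05 there were 0 and 1 members, and 110 and 454 of all genes. The 1 member was *RPL22L1* on day 24, which scored 14 and 13 in KO#2 against 21 and 19 in KO#10 (-0.53 ± 0.15, adjusted *p* = 0.826). The 3 largest differences each way on day 24, as KO#2 minus KO#10, were *RPL41* (-1.11), *RPL13A* (-0.80) and *RPS27* (-0.60), and *RPL39* (0.96), *RPL9* (0.87) and *RPS3A* (0.44). On day 12 they were *RPL7A* (-1.11), *RPS19* (-0.67) and *RPL41* (-0.51), and *RPL7* (0.67), *RPL4* (0.52) and *RPSA* (0.44).

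On day 12 the scores also went with the replicate number, as the plot of replicate 1 against replicate 2 shows. In 24 members all 3 replicate 1 libraries lay above all 3 replicate 2 libraries, against 12.6% of the 8885 genes tested, and in 6 they lay below, against 13.2%. *RPL39* was at 3036 in replicate 1 and at 900 in replicate 2 of WT, KO#2 and KO#10 alike. *RPS20* was at 1204, 3048 and 3048 in replicate 1 and at 1009 in all 3 libraries of replicate 2. *RPS15A* and *RPL28* were among the 6 that ran the other way, *RPS15A* at 748 in replicate 1 and 820 in replicate 2 of each line. On day 24 the numbers were 2 above (4.12% of 9289 genes) and 4 below (4.07%). What a replicate number stands for is not given in the sources used here, and its part in these results was not tested beyond the fits with it as a block.

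**Figure D5:**
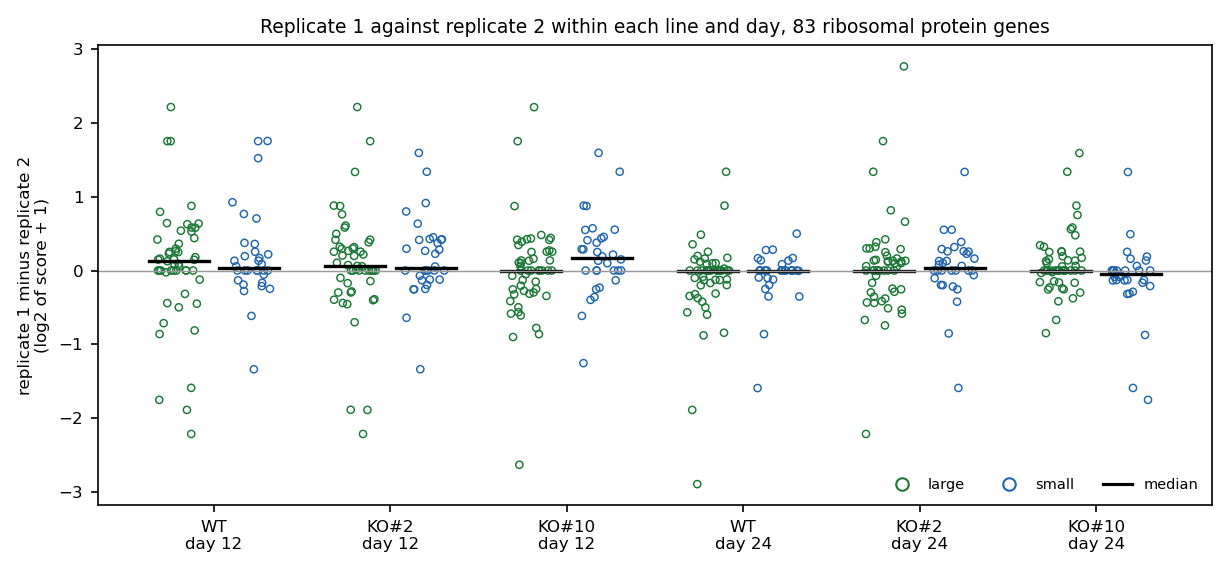
Replicate 1 minus replicate 2 in log2(score + 1) for each of the 83 ribosomal protein genes within each line and day, split into large (green) and small (blue) subunit, with black lines at the median. On day 12 replicate 1 is higher for 45 members in WT, 44 in KO#2 and 41 in KO#10, and on day 24 for 22, 41 and 30.

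Members with and without the pyrimidine motif at a listed start were set side by side. On day 24, 6 of the 47 with it and 6 of the 20 without it were called between KO and WT (12.8% and 30.0%, background 14.6%), with medians of -0.24 and -0.40. With time in WT, 7 of 47 and 5 of 20 were called (14.9% and 25%, background 31.4%, medians 0.05 and 0.06). In KO it was 6 of 47 and 5 of 20 (12.8% and 25%, background 38.8%, medians -0.11 and -0.25). These are counts over members and no test was made of them.

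Other genes of ribosome production were read from lists chosen with earlier results known, and their counts stand against the shares of all genes called lower (6.48%) or higher (8.16%) in KO on day 24, and higher or lower with time in WT (14.7% and 16.7%) and in KO (19.5% and 19.4%). Among factors that assemble ribosomes in the nucleolus, 8 of 49 tested (16.3%) were lower in KO than in WT on day 24 and 0 higher (median -0.43), including *RSL24D1* (-0.91), which takes part in large-subunit assembly, and the helicase gene *DDX21* (-0.95). With time, 8 rose and 3 fell in WT (16.3% and 6.12%, median 0.29), and 10 rose and 4 fell in KO (20.4% and 8.16%, median 0.05), so that the shares that rose were near those of all genes. On day 12, 0 of 48 were called with limma and 8 had an unadjusted *p* under 0.05, against 980 of all 8885 genes tested. Of the 48 differences 41 were below 0 (median -0.22), against 4479 of all 8885 genes.

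Of 13 host genes of small nucleolar RNAs, which guide the modification of ribosomal RNA, 6 (46.2%) were lower in KO on day 24 and 0 higher (median -0.61). They included *EPB41L4A-AS1* (-0.93) and *SNHG1* (-0.61). In WT 4 of the 13 (30.8%) rose with time and 0 fell, and in KO 1 rose and 2 fell. Of 17 genes of RNA polymerase I and its factors, which transcribe the ribosomal RNA precursor, 2 (11.8%) were lower in KO on day 24 (*POLR1D* at -1.15 and *POLR1E* at -0.64). With time 4 rose and 2 fell in WT, and 1 rose and 2 fell in KO. In WT *POLR2F* (1.58), *POLR1D* (1.01), *POLR2L* (1.01) and *POLR2K* (0.84) rose, while *TAF1C* (-0.86) and *POLR1A* (-0.54) fell. In KO *POLR2K* (0.53) rose, while *TAF1C* (-0.53) and *TAF1B* (-1.06) fell. As the list holds *POLR2* genes, its counts are not specific to RNA polymerase I.

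Translation factors whose messenger RNAs carry the TOP motif were read as a further list. Of 27 tested, 1 (3.7%) was lower in KO on day 24, *EIF3M* (-0.82), with a median of -0.13, while 3 rose and 1 fell with time in WT and 4 rose and 1 fell in KO. Of 17 genes that signal growth to ribosomes, 1 (5.88%) was higher in KO on day 24, *TSC2* (0.67), an inhibitor of mTOR signalling, with 2 up and 2 down with time in WT and 2 up and 3 down in KO. On day 12, 0 genes of the polymerase, host gene, translation factor and signalling lists were called between KO and WT with limma. At an unadjusted *p* under 0.05 there was 1, in the polymerase list, against 980 of all 8885 genes tested.

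Genes for the ribosome of mitochondria, which is a separate particle, also stood lower in KO on day 24. Of 76 tested, 7 were called lower (9.21%, against 6.48% of all genes) and 0 higher (median -0.33). On day 12, 0 of 74 were called with limma (median -0.14), and 5 had an unadjusted *p* under 0.05, against 980 of all 8885 genes tested. With time, 27 rose and 1 fell in WT (35.5% and 1.32%, median 0.55), and 23 rose and 1 fell in KO (30.3% and 1.32%, median 0.29). Their summed scores were 2011 to 2128 in WT and 1782 to 1925 in KO on day 12, and 3053 to 3056 in WT and 2141 to 2695 in KO on day 24, so that unlike the cytoplasmic genes, whose median with time was 0.05 in WT and -0.13 in KO, their medians were positive in both genotypes. The difference between the lists was not tested.

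Markers of cell types differed between the groups on both days. The 9 pluripotent stem cell markers had summed scores of 941 to 1154 in WT and 559 to 641 in KO on day 12, and 531 to 1022 in WT and 58 to 88 in KO on day 24, with 8 of 8 tested called lower in KO on day 24 and 3 of 8 on day 12 (*POU5F1* at -2.76, *TDGF1* at -4.01 and *DNMT3B* at -1.52). The 4 endoderm markers listed in the files summed to 3 to 14 in WT and 0 to 17 in KO on day 12, and to 6257 to 6341 in WT and 33 to 1091 in KO on day 24, and *SERPINA1* was at 0 in every KO library of day 12. Neuron markers (8 genes) summed to 166 to 265 in WT and 263 to 353 in KO on day 12, and to 163 to 327 and 409 to 1997 on day 24, with 4 called higher in KO on day 24, and *ELAVL4* was at 0 in both WT libraries of day 12. Neural progenitor markers (7 genes) summed to 533 to 670 in WT and 817 to 1011 in KO on day 12, and to 528 to 703 and 970 to 1070 on day 24, with 3 called higher on day 24. Cycling cell markers (7 genes) summed to 860 to 985 in WT and 690 to 876 in KO on day 12, and to 658 to 719 and 687 to 713 on day 24, with 2 higher and 1 lower on day 24. The part of these differences in the results for the ribosomal protein genes was not tested.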

How the data were processed

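RNA-seq of 12 CO libraries was read as deposited. The deposited values are scores in whole numbers, made by the authors, whose normalization and depth are not given in the sources used here. The submitters' processing notes name bcl2fastq, RSEM, Bowtie2 and mm10. The gene identifiers and intervals are human: all 83 members are in GENCODE release 29 (GRCh38) and overlap its intervals. Coordinates are as in the files.

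Scores were taken as log2(score + 1). A gene entered a test when 2 or more of the libraries compared held a score of 10 or more. Linear models with moderated variances and a variance trend were fitted in limma 3.58.1 (R 4.3.3), with Benjamini-Hochberg adjustment over the whole set of genes tested. A member was called at an adjusted *p* under 0.05, with counts at 2-fold given too. KO was fitted against WT within each day, the clones in a fit with 3 groups, and time and interaction over all 12 libraries. The fits were tested on simulated data with independent noise, without the shared top levels of the scores and without pairing by replicate number. That test therefore does not cover the effect of these features on the fits. Differences on this scale understate the change of low genes. The large and small subunit were described by means, with no test.

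Named members are those called in any comparison, the paralog pairs, the stalk genes, *RPSA*, *RPS15A* and the 3 largest differences each way per comparison, and the values of 1 such member are not reported here. The members, lists and rules were chosen with earlier results of these data known. The alternatives were a pseudocount of 0.1, other filters, no trend, ranks, a correction for transcript length, separate clones, all libraries in 1 fit, a replicate block and each library left out.

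Same-numbered libraries deviated together on day 12 (r across genes of 0.459 for WT and KO#2, 0.429 for WT and KO#10, 0.598 for the clones). Over the 83 members r was 0.553, 0.252 and 0.718 in the same order. The numbers, which come from the sample labels, were therefore taken to pair libraries of that day. The main fits held no term for this pairing, so that their *p*-values do not account for it. It entered only the alternative with the replicate number as a block. Starts came from RefSeq. Figures were made with Python 3.11.15 and matplotlib 3.10.9.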

Additional observations from a re-analysis of the deposited data

Results flagged for a closer look

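In groups of 4 KO libraries, a library was singled out where its gap to the nearest other, over the range of the group, passed Dixon's critical value. Of 92 groups tested 18 passed, and in 14 of them the other 3 libraries held 1 equal score, so that any gap passes, however small. The chance rate of about 1 in 20 is for values without ties and does not apply to these. On day 12, KO#2 replicate 1 held *RPL13A* at 5585 (3036 in the others), *RPL22* at 158 (118 to 124), *RPL7* at 3036 (1202) and *RPS19* at 1203 (3043). KO#2 replicate 2 held *RPL17* at 1203 (1202) and *RPS10* at 821 (1008 to 1009). KO#10 replicate 1 held *RPL19* at 822 (750), *RPL22L1* at 9 (13 to 14) and *RPL6* at 600 (666), and KO#10 replicate 2 held *RPSA* at 3036 (5585).

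On day 24, KO#10 replicate 1 held *RPL13A* at 3036 (1007 in the others), *RPL7* at 900 (1200 to 1202) and *RPS15A* at 820 (900). KO#10 replicate 2 held *RPL19* at 552 (553). KO#2 replicate 1 held *RPL41* at 1202 (5585) and *RPS10* at 820 (750), and KO#2 replicate 2 held *RPL17* at 820 (901) and *RPL32* at 604 (668).

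The KO effect on *RPS15A* differed between the days by -1.79 (interaction of genotype and day, limma, adjusted *p* = 0.00269).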

How the results depend on the processing

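No member called reversed its sign under any alternative. Leaving out each library in turn gave 0 to 1 called members for KO against WT on day 12 (0 with all), with medians of -0.0352 to 0.0798 (0.00597), and 1 to 22 on day 24 (14). It gave 8 to 17 with time in WT (14), with medians of 0.00375 to 0.15 (0.05), 6 to 17 with time in KO (12), and 1 to 9 for the interaction (1), with medians of -0.34 to -0.23 (-0.28). Without a variance trend 9 members were called on day 24. With ranks 2 were called for the interaction. With the transcript length trend removed the median was -0.00856 with time in WT and -0.22 for the interaction. A replicate block gave 28 members with time in WT, 25 with time in KO and 8 for the interaction, and changed no other count by over 1.5 times (0 on day 12 and 15 on day 24). The numbers were not taken to pair the libraries of day 24. Over all genes tested r was 0.212 for WT and KO#2, -0.106 for WT and KO#10 and 0.346 for the clones. Over the 83 members it was 0.218, 0.353 and 0.326, and for WT and KO#10 this was above the 0.252 of day 12. On day 24 the block ended the call of *RPS27* (adjusted *p* = 0.0518, limma). The shares of all genes called were not computed for the alternatives. The counts thus show how far the calls moved and nothing particular about the members. The causes of these shifts were not tested. With an unknown depth and 2 WT libraries a day, no counting error can be given.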
